A study of Xenopus laevis with 16 samples.

Results

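The comparison described here set animal caps against whole embryos of Xenopus laevis, both depleted of POUV proteins, the Xenopus counterparts of mammalian Oct4. Its members are the 8 arrays labelled PVD2 of the 16 in the series, 4 from animal caps and 4 from whole embryos, taken at stages 9 (late blastula) and 10 (early gastrula) with 2 biological replicates of each. PVD2 is a morpholino mixture against the POUV genes, injected at 60 ng into each blastomere of embryos at the stage of 2 cells, and the other 8 arrays are caps and whole embryos of the same 2 stages injected with the same amount of control morpholino. Caps, the explanted ectoderm of the animal pole, were cut at stage 8 from injected embryos and cultured on their own in a more concentrated medium than the whole embryos, with 25 caps or 3 embryos pooled per sample. Sample RNA was labelled with Cy3 and hybridized with a Cy5-labelled reference pooled from whole embryos of 11 stages, and the dyes were not swapped. The question addressed is which regional differences between ectoderm and whole embryo are seen when POUV proteins are depleted.

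At these stages the cells of the animal cap are still multipotent and lie farthest from the vegetal yolk. Vegetal cells inherit localized maternal RNAs, among them the germ plasm and the T-box factor vegt, and they make Nodal-related ligands that induce mesoderm in the marginal zone and endoderm below it. The organizer forms on the dorsal side, where Wnt and Nodal signals overlap, and secretes BMP antagonists. Cap cells cut off from these signals form epidermis under BMP signalling. POUV proteins are known in Xenopus for holding back Nodal, Wnt and maternal VegT responses, so that cells are not committed too early.

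Tissue coincided with slide, with scan day and with culture medium, so the difference between PVD2 caps and PVD2 embryos cannot be told apart from a difference between these. Each of 4 slides held arrays of 1 tissue and 1 replicate number, except that the slide of the second stage 10 PVD2 cap sample, for which no scanner file was used, was not seen. In PVD2 caps 55.6% to 60.7% of the probes were well above background in Cy3 (a flag set by the scanner software), against 59.8% to 63.6% in PVD2 embryos, and the median Cy3 signal over local background was 64.5 to 67.1 units in caps and 27.5 to 35.0 in embryos. Of the fixed marker genes of cap ectoderm, all 7 that were measured were well above background on the 3 PVD2 cap arrays with scanner files, and 2 of them were higher in caps than in embryos (median difference 0.05). Of 7 measured marginal zone mesoderm markers 2 were lower and 1 was higher. All 3 measured germ plasm markers and 4 of 8 measured vegetal and endodermal markers were lower in caps, but 7 of these 8 were still well above background on every cap array with a scanner file. In pooled tissue, fewer cells of a type and less RNA per cell cannot be told apart. Whole embryos contain cap ectoderm too, so a level marker does not show that its RNA was even across the embryo.

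All values below are the authors' processed values of a probe, converted to log2, so a difference of 1 is a 2-fold change. Caps minus embryos over both stages was fitted in limma with stage as a covariate. The tests at 1 stage, between stages and between PVD2 and control used a mean for each group instead. Benjamini-Hochberg adjustment was over all 21495 probes. Of these, 4299 passed an adjusted p of 0.05 (20.0%), with 2624 higher (12.2%) and 1675 lower (7.79%) in PVD2 caps than in PVD2 embryos. Groups that did not overlap, 4 cap arrays against 4 embryo arrays, were found for 24.2% of all probes. Most differences were small. Of the called probes 627 were more than 2-fold lower in caps and 1146 more than 2-fold higher, and 125 and 232 differed more than 4-fold. The largest were mainly deficits in caps: 57 probes were more than 8-fold lower and 42 more than 8-fold higher, and 16 were more than 32-fold lower against 3 more than 32-fold higher. Whole embryos contain the cap ectoderm as a part, so an excess in caps has an upper limit that a deficit has not. Counts of large differences in the 2 directions are therefore not on equal terms. With the replicate number as a block 6622 probes were called, 3971 of them higher. A random block for each tissue and replicate number, named the random block for slide below, called 2301. The ratio computed anew from the 7 scanner files with an offset of 50, named the scanner file ratio below, called 544 (294 higher and 250 lower). The processed values of the same 7 arrays called 3087. The ratio that the scanner software, Feature Extraction, had written in those files called 3412 (2150 higher and 1262 lower). When every array was centred on its median, which shifted the median difference by 0.17 toward lower in caps, 1780 were called higher and 3189 lower, so the balance of directions over all probes depends on the scaling. Without the first stage 9 PVD2 cap sample 2838 were called.

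Among named genes, the largest fitted deficits in PVD2 caps were in the germ plasm RNA germes and in RNAs of the mesendoderm. For probes not well above background in caps, germes among them, that order is uncertain. The smallest log2 difference in any other fit was -4.98 for germes and -7.35 for gdf3. The rule for named genes took only probes with 1 gene name, 3634 of 21495. Their cap and embryo arrays also had to be without overlap, as was so for 24.2% of all probes. By this rule the 12 largest fitted differences were those of germes, nodal3.1, gdf3, mix1, menf.1, xenf, foxa4, bix1.2, nodal2, bix1.3, bix1.1 and nodal6. The germ plasm gene germes had 3.37 and 3.38 in stage 9 PVD2 caps and 3.19 and 3.03 in stage 10 PVD2 caps, against 12.65, 13.25, 11.68 and 12.58 in PVD2 embryos. It was not well above background on any cap array, and the bound was at least 13.6-fold lower in caps (adjusted p = 2.87e-05, limma). Such bounds set the Cy3 signal of the brighter tissue against the lowest signal detected on each array of the dimmer one. Where the probe's own signal on such an array was higher than that, it was used instead. The bounds rest on the 7 PVD2 arrays with scanner files. They are minima for the Cy3 signal and not for the sample over reference ratio. Some other fits gave log2 differences smaller than the bound. These were -2.96 for foxa4, -3.02 for nodal2, -3.62 for nodal3.1, -1.74 for nodal6, -0.37 for sia1 and 2.18 for socs3.

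The probe for gdf3, a TGF-beta family ligand, was measured well above background in both tissues. It had 7.48, 7.61, 8.19 and 8.25 in PVD2 caps and 15.27, 14.63, 16.59 and 16.71 in PVD2 embryos, a difference of -7.92 ± 0.25 (SE) or 241-fold (adjusted p = 2.87e-05, limma). Every cap array lay far below every embryo array, and the embryo values were higher at stage 10 than at stage 9. The 2 nuclear factors named in the array's annotation for mesendoderm and early endoderm, menf.1 and xenf, were 165-fold and 117-fold lower in caps (log2 differences -7.37 ± 0.23 and -6.87 ± 0.48).

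**Figure D1:**
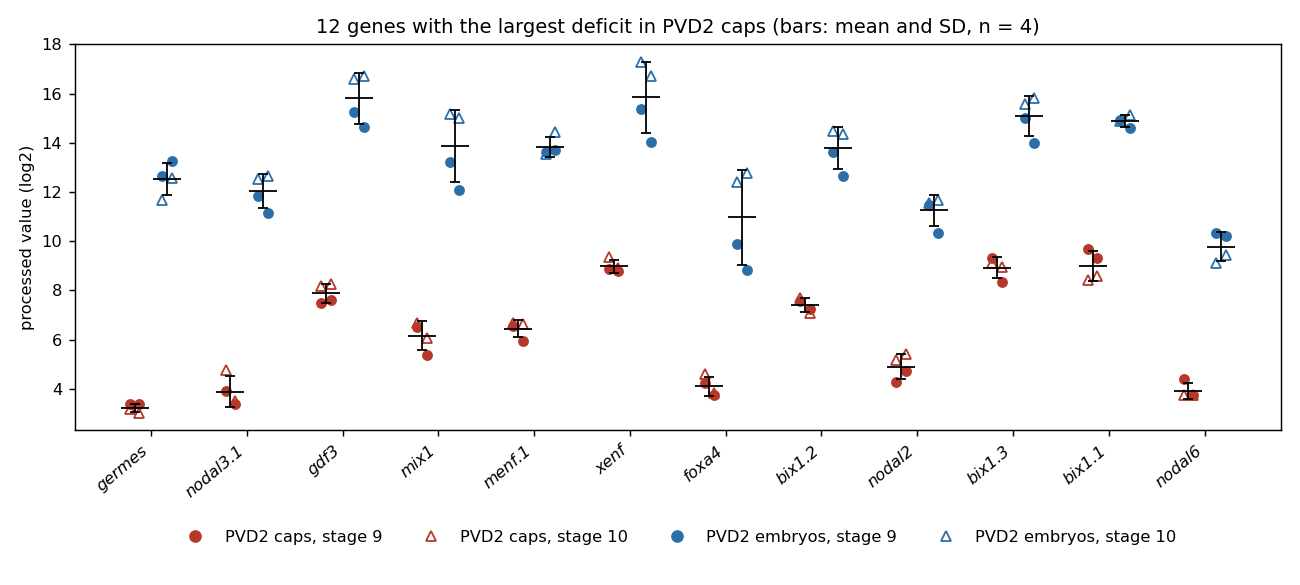
Processed values (log2, y axis) of the 12 genes with the largest deficit in PVD2 caps, with caps (red) left of whole embryos (blue) for each gene, circles for stage 9, triangles for stage 10, and bars for the mean and SD of 4 arrays. Genes were chosen among probes without overlap between tissues, and gdf3, measured in both, has 7.48 to 8.25 in caps against 14.63 to 16.71 in embryos.

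All 11 measured genes of the list of germ plasm and vegetally localized maternal RNAs were lower in PVD2 caps, and none was higher. The median difference was -2.11, against 0.00 over all probes, of which 7.79% were lower. With the scanner file ratio 9 of the 11 were called lower, and with the random block for slide also 9. The calls of wnt11b and plin2 were lost in both. The list was taken by the brightest probe of each gene, and 10 of the 11 were well above background on every PVD2 array. The vegetal T-box factor vegt had 13.33, 13.02, 13.92 and 14.16 in PVD2 caps, against 16.20, 16.32, 17.07 and 17.30 in PVD2 embryos. Caps were lower on every array, by 3.11 ± 0.13 (SE) or 8.65-fold, and a second probe gave 10.2-fold. The RNA helicase ddx25, a germ plasm component, was 10.5-fold lower, and pgat, another germ plasm RNA, 15.6-fold lower.

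The median tissue difference of the germ plasm list was -2.48 at stage 9 and -1.91 at stage 10. For ddx25 the tissue difference was -3.28 at stage 9 and -3.49 at stage 10, and for pgat -3.96 and -3.97. That of wnt11b, a maternal Wnt ligand, was -2.50 at stage 9 (adjusted p = 0.00959, limma) and -0.77 at stage 10 (adjusted p = 0.206). For wnt11b the difference between the stages did not pass (adjusted p = 0.586). Its values were 11.99, 11.04, 13.77 and 13.85 in PVD2 caps, with both stage 10 caps above both stage 9 caps, and 14.04, 14.00, 14.57 and 14.59 in PVD2 embryos. A second, dimmer probe for nanos1 went the other way from the first (1.59 against -2.11), and it was well above background on 1 cap array and no embryo array.

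Among the Nodal pathway genes the largest differences were in ligands. Of 14 measured genes 8 were lower in PVD2 caps, 1 was higher and 5 did not pass (median -1.92), beside 7.79% of all probes lower and 12.2% higher. With the scanner file ratio 4 of the 14 were called lower. The mesoderm-inducing ligand nodal2 had 4.30, 4.72, 5.17 and 5.44 in PVD2 caps, against 11.46, 10.34, 11.54 and 11.69 in PVD2 embryos. It was not well above background on any cap array, which gave at least 9.55-fold lower in caps (adjusted p = 4.22e-05, limma), and nodal3.1 and nodal6 gave at least 16.8-fold and 3.46-fold by the same bound.

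The ligand nodal1 was above background in both tissues, with 7.46, 6.37, 6.55 and 6.20 in PVD2 caps and 10.58, 9.95, 10.78 and 11.72 in PVD2 embryos. This was a difference of -4.11 ± 0.43 (17.3-fold lower in caps, adjusted p = 0.00131), and the ligand gene nodal, the Xnr4 of the array's annotation, was 40.9-fold lower. The Nodal feedback inhibitor lefty was lower by 2.71 ± 0.58, a call that was lost without any 1 of 4 arrays, and the Smad partner foxh1 by 1.12 ± 0.17. The calls of nodal, nodal6, lefty and foxh1 were lost with the scanner file ratio. The receptors acvr1b (0.06) and acvr2b (-0.01), the co-receptor tdgf1.3 (0.11) and the signal transducer smad3 (0.48) did not pass, although a second, dimmer probe for acvr2b was higher in caps by 0.48 ± 0.11 (adjusted p = 0.0222). The 1 member that was higher in caps was inhbb, an activin subunit (1.48 ± 0.26), and its sign turned when the ratio was computed from the scanner files (-0.13).

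Of the endoderm regulators, 8 of 14 measured list members were lower in PVD2 caps, 6 did not pass, and none was higher (median -3.24). Of all probes 7.79% were lower. With the scanner file ratio 5 of the 14 were called lower. At stage 10 alone 13 of the 14 members were lower (median -5.31), beside 1.98% of all probes. At stage 9 alone 7 were lower and 1 was higher (median -1.76), beside 2.57% and 4.60% of all probes. The homeobox genes mix1, bix1.1, bix1.2 and bix1.3, targets of VegT and Nodal signals, differed most, by 208-fold, 59.0-fold, 83.0-fold and 71.7-fold, and this mix1 probe was above background on 2 of 3 cap arrays, while a second gave 12.3-fold. The endodermal HMG-box factor sox17a had 9.51, 10.21, 9.54 and 10.41 in PVD2 caps and 12.62, 12.18, 13.88 and 14.04 in PVD2 embryos (-3.26 ± 0.37, adjusted p = 0.00182, limma). Groups did not overlap, and the gap was wider at stage 10 (-3.98) than at stage 9 (-2.54), a stage difference that did not pass (adjusted p = 0.937). The related sox17b.1 was lower by 3.75 ± 0.65, mixer by 2.59 ± 0.50 and hhex by 3.89 ± 0.71. The calls of sox17b.1, mixer and hhex were lost with the scanner file ratio.

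The GATA factors gata4, gata5 and gata6, which act in endoderm and mesoderm, and cer1, an antagonist of Nodal, BMP and Wnt, did not pass over both stages, and were lower in PVD2 caps at stage 10. The probe for gata5 had 9.43 and 9.81 in PVD2 caps at stage 9 and 9.62 and 10.12 at stage 10, against 10.52 and 9.97 in PVD2 embryos at stage 9 and 14.57 and 14.31 at stage 10. Caps were level across stages, and both stage 10 embryo samples stood far above them. At stage 10 the difference was -4.57 (adjusted p = 0.00163, limma), and at stage 9 it was -0.62 (adjusted p = 0.249).

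**Figure D2:**
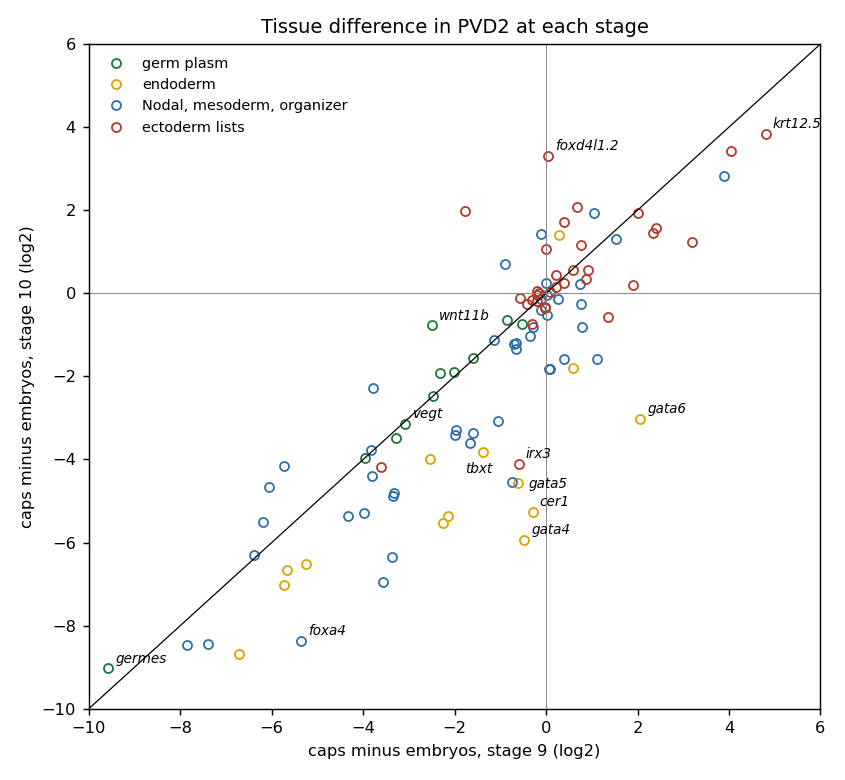
Caps minus embryos in PVD2 at stage 9 (x axis, log2) and at stage 10 (y axis, log2) for the measured members of the germ plasm, endoderm, Nodal, mesoderm, organizer and ectoderm lists, 1 point per gene, with the line of equal differences. Points for gata4, gata5, cer1, tbxt and irx3 lie above -1 at stage 9 and below -4 at stage 10, while vegt and germes lie near the line.

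At stage 10 the difference of gata4 was -5.93 (adjusted p = 0.00244), but its probe was above background on 2 of 4 PVD2 embryo arrays and no cap array. The difference of cer1 was -5.26 at stage 10 (adjusted p = 0.00477) and -0.29 at stage 9 (adjusted p = 0.796). For gata6 the brighter probe gave -3.02 at stage 10 (adjusted p = 0.0131) and 2.05 at stage 9 (adjusted p = 0.0347), and it was above background on 3 of 4 PVD2 embryo arrays.

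Over all probes 1541 differed between PVD2 caps and PVD2 embryos at stage 9 (7.17%, 989 higher or 4.60% and 552 lower or 2.57%) and 1202 at stage 10 (5.59%, 776 higher or 3.61% and 426 lower or 1.98%). Lower at both stages were 237 probes, which is 42.9% of the stage 9 list and 55.6% of the stage 10 list, and higher at both were 552 (55.8% and 71.1%). The change of the difference between stages passed for 0 probes in limma (0%, with 1082 at an unadjusted p under 0.05, and 67 by the fit with a random block for slide and 34 when all 16 arrays were fitted). The genes with the smallest p for it that met the rule, none of which passed, were gata6, gata5, foxd4l1.2, gata4 and sst.1 (adjusted p of 0.122 to 0.183). With the replicate block 3399 probes were called at stage 9 and 2839 at stage 10. The scanner file ratio called 8 at stage 9 and 10 at stage 10, all of them lower in caps. The Feature Extraction ratio called 1103 at stage 9 and 272 at stage 10. Leaving out any 1 array of the stage in question left 351 to 775 calls at stage 9 and 240 to 388 at stage 10. Without either stage 10 cap sample 877 were called at stage 9, and without either stage 9 cap sample 769 at stage 10.

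Mesodermal and FGF response genes were split, with 6 of 19 lower in PVD2 caps, 2 higher and 11 not passing (median -0.70), and with the replicate block 9 were lower. Over all probes 7.79% were lower and 12.2% higher in the main fit. The T-box factor eomes had 10.53, 8.75, 11.58 and 10.94 in PVD2 caps against 14.50, 13.44, 16.35 and 16.88 in PVD2 embryos (28.7-fold lower, adjusted p = 0.00106, limma). The growth factor fgf8 had 8.78, 8.61, 9.14 and 9.41 in PVD2 caps against 12.69, 12.31, 13.42 and 13.94 in PVD2 embryos (17.2-fold lower, adjusted p = 8.35e-05). Neither gene overlapped between tissues. The mesodermal regulator mespa, not well above background on any cap array, was at least 2.56-fold lower, and fgf20, snai1 and the FGF antagonist spry2 were lower by 3.04, 2.63 and 2.47. The call of spry2 was lost with the scanner file ratio.

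The pan-mesodermal T-box factor tbxt (brachyury) had 7.87, 6.23, 7.81 and 7.68 in PVD2 caps, against 7.92, 7.66, 12.44 and 12.15 in PVD2 embryos. Both stage 10 embryo samples stood clear of the caps. Its difference did not pass over both stages (-2.65, adjusted p = 0.0558) and passed at stage 10 (-4.55, adjusted p = 0.00806). The 2 members higher in caps, myf5 (3.35) and cdx2 (1.42), turned sign with the ratio computed from the scanner files (-0.14 and -0.59), and myf5 was not well above background on any embryo array.

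Organizer genes were lower in PVD2 caps for 10 of 14 measured members, with 4 not passing and none higher (median -3.22), beside 7.79% of all probes lower. With the scanner file ratio 5 of the 14 were called lower. The BMP antagonist chrd.1 had 9.18, 9.03, 10.03 and 9.33 in PVD2 caps against 13.06, 11.79, 14.33 and 14.64 in PVD2 embryos (-4.06 ± 0.40, 16.7-fold lower, adjusted p = 0.00116, limma). The Wnt antagonist frzb was 38.3-fold lower and the BMP ligand of the organizer admp 24.7-fold lower, all without overlap. The forkhead factor foxa4 was at least 12.1-fold lower, and sia1, sia2 and nog, not well above background on any cap array, at least 1.48-fold, 1.42-fold and 1.28-fold lower. For sia1 and nog 3 of 4 embryo arrays were above background. The homeobox gene not differed less, by -0.96 ± 0.17, and gsc did not pass (-0.87 ± 0.43). The calls of frzb, sia1, sia2 and not were lost with the scanner file ratio.

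Genes of the ventral BMP response had a small median difference (-0.07). Of 14 measured members 3 were lower, 1 was higher and 10 did not pass, beside 7.79% of all probes lower and 12.2% higher. The ligand bmp2 was lower by 0.92 ± 0.12 at its brighter probe (adjusted p = 0.00335, limma), while a second probe gave 0.23 (adjusted p = 0.268). The BMP-responsive repressors ventx1.1 and ventx3.2 were lower by 1.26 ± 0.36 and 1.14 ± 0.26, with overlapping groups, and their calls were lost without any 1 of 7 arrays (ventx1.1) or any 1 of 6 (ventx3.2). The inhibitory Smads smad6 (-0.07) and smad7 (-0.07) did not pass. The 1 higher member, msx2, was at the threshold (1.03 ± 0.30, adjusted p = 0.0499) and was not called in 11 of 12 alternatives, the replicate block included.

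Of 15 measured non-neural ectoderm genes 5 were higher in PVD2 caps, none was lower and 10 did not pass (median 0.53). Over all probes 12.2% were higher and 7.79% lower. For 10 of the 15 the sample over reference ratio was above -2 (log2) in at least 1 PVD2 tissue. Both krt12.5 and krt70 were at or under -2 in both tissues, where 34.3% of all such probes were higher. The epidermal keratin krt12.5 had 15.03, 15.24, 14.50 and 14.98 in PVD2 caps and 10.32, 10.35, 11.02 and 10.78 in PVD2 embryos (4.32 ± 0.23, 20.0-fold higher, adjusted p = 0.000114, limma). A second keratin, krt70, had 14.71, 15.83, 16.93 and 17.48 in PVD2 caps and 11.14, 11.33, 13.77 and 13.81 in PVD2 embryos (13.2-fold higher, adjusted p = 0.000389). Neither overlapped between tissues, and both held with the ratio computed from the scanner files (3.49 and 3.18, adjusted p = 0.0185 and 0.0188).

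The homeobox gene dlx3, expressed in non-neural ectoderm, was 3.97-fold higher (adjusted p = 0.0143). It had 11.72, 11.82, 13.51 and 13.20 in PVD2 caps and 10.20, 8.52, 12.15 and 11.41 in PVD2 embryos, so the groups overlapped, caps were higher within each stage, and both tissues were higher at stage 10. The simple keratin krt8.1 was 1.95-fold higher and krt12.2 4.61-fold, and krt12.2 had its sign turned in the scanner file ratio (-0.45). The ectodermal forkhead factor foxi2 had 14.06, 14.10, 13.96 and 14.07 in PVD2 caps against 14.31, 14.15, 14.08 and 13.95 in PVD2 embryos. Its groups overlapped, and the difference of -0.08 ± 0.10 did not pass (adjusted p = 0.627), nor did that of tfap2a (-0.07 ± 0.11).

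Of 18 measured neural and early ectoderm genes 3 were higher in PVD2 caps, 1 was lower and 14 did not pass (median 0.25), beside 12.2% of all probes higher and 7.79% lower. With the replicate block 4 were higher and 2 lower. The homeobox gene irx2 was 3.93-fold higher, hes5.10 3.73-fold and lhx5 by 0.57 ± 0.14, and irx2 turned sign in the scanner file ratio (-0.15). The call of lhx5 was kept in 2 of 8 fits that left out 1 array and that of hes5.10 in 5 of 8. The neural progenitor factor sox3 was level, with 16.69, 16.85, 16.92 and 17.30 in PVD2 caps against 16.80, 16.58, 17.08 and 17.09 in PVD2 embryos.

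**Figure D3:**
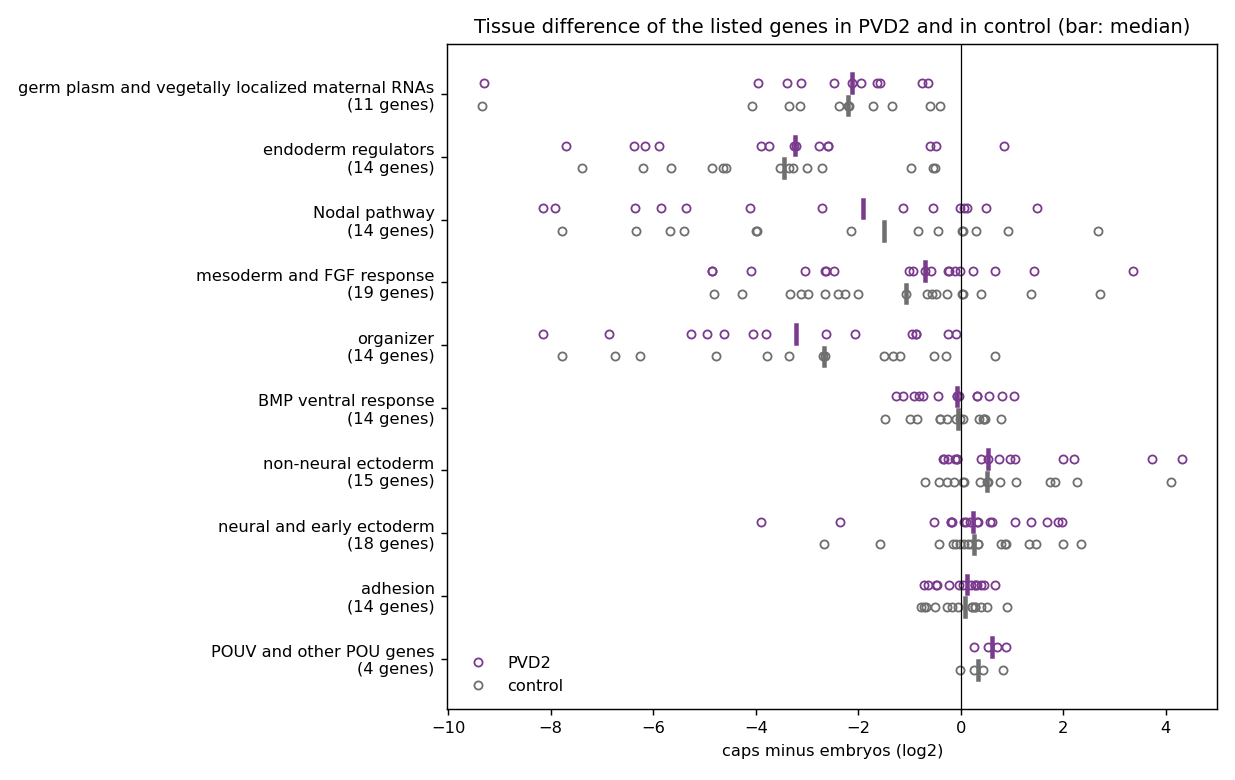
Caps minus embryos (x axis, log2) for each measured gene of the 10 lists, in PVD2 (purple, upper row of each list) and in control (grey, lower row), with bars for the medians. The germ plasm, endoderm, Nodal and organizer lists lie mainly below 0 in both, with PVD2 medians of -2.11, -3.24, -1.92 and -3.22, and the adhesion and BMP lists lie around 0.

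Of 32 entries of the adhesion list only 13 were matched to probes, as 14 genes. Of these 14 measured adhesion genes 2 were lower in PVD2 caps, 1 was higher and 11 did not pass (median 0.11), while 20.0% of all probes were called. With the replicate block 3 were higher. The C-cadherin gene cdh3 had 13.87, 14.04, 14.28 and 14.15 in PVD2 caps against 14.55, 14.62, 14.75 and 15.00 in PVD2 embryos, without overlap (-0.64 ± 0.11, 1.56-fold lower, adjusted p = 0.00801, limma). The claudin cldn6.2 was 1.64-fold lower, and ctnnd1, the p120 catenin that binds cadherin tails, 1.58-fold higher (adjusted p = 0.00663). With the scanner file ratio the differences were -0.56, -0.54 and 0.61, and the 3 calls were lost (adjusted p = 0.116, 0.304 and 0.0975). E-cadherin cdh1 (0.27 ± 0.12), beta-catenin ctnnb1 (-0.03 ± 0.10) and integrin itgb1 (0.03 ± 0.19) did not pass.

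The POUV genes targeted by the morpholinos were represented by pou5f3.1 and pou5f3.3, and no probe was matched to pou5f3.2. A morpholino acts on the RNA's use and need not lower its level, so these values do not check the depletion. The maternal gene pou5f3.3 had 18.04, 18.05, 17.95 and 18.15 in PVD2 caps against 17.80, 17.86, 17.76 and 17.79 in PVD2 embryos (0.25 ± 0.10, adjusted p = 0.116, limma). The groups did not overlap, but the difference did not pass. The zygotic gene pou5f3.1 had 13.19, 13.91, 15.48 and 15.56 in PVD2 caps against 12.91, 11.19, 15.76 and 15.46 in PVD2 embryos (0.70 ± 0.47, adjusted p = 0.332), higher at stage 10 in both. Of other POU genes, pou2f1 (0.52 ± 0.11) and pou3f4 (0.89 ± 0.10) were higher in caps, and pou3f4 turned sign in the scanner file ratio (-0.81).

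The largest excesses in PVD2 caps fell on a different kind of gene. By the same rule, which took only probes without overlap, they were socs3, sst.1, krt12.5, serpind1, rdh7.2, krt70, mybpc3, rgs5, myf5, arr3, ambp and col1a2. Besides the 2 keratins and socs3, a suppressor of cytokine signalling, they include genes of differentiated organs. Among these are the plasma protein genes serpind1 and ambp, the muscle gene mybpc3, the collagen col1a2 and the hormone gene sst.1. Also present is myf5, a member of the mesoderm list. For socs3, PVD2 caps had 11.83, 7.92, 13.15 and 13.37 and PVD2 embryos 4.60, 4.29, 5.81 and 5.77, at least 5.22-fold higher in caps (adjusted p = 0.00315, limma). Caps were higher throughout, and the second stage 9 cap sample was well below the other caps.

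**Figure D4:**
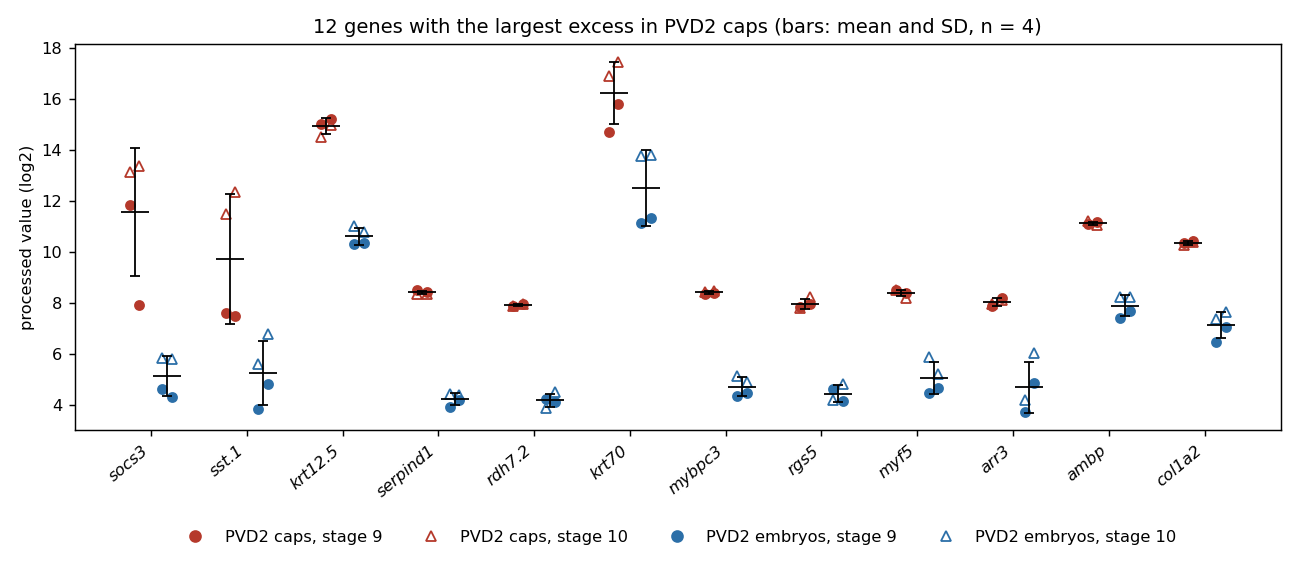
Processed values (log2, y axis) of the 12 genes with the largest excess in PVD2 caps, with caps (red) left of whole embryos (blue) for each gene, circles for stage 9, triangles for stage 10, and bars for the mean and SD of 4 arrays. Genes were chosen among probes without overlap between tissues. The values of socs3 and sst.1 spread widely among the caps, while serpind1, at 8.35 to 8.51 in caps and 3.91 to 4.41 in embryos, hardly varies.

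Most of these probes were far dimmer in the sample than in the reference, which holds later stages. The sample over reference ratio of col1a2 averaged -4.93 on the log2 scale in PVD2 caps and -8.15 in PVD2 embryos, and that of ambp -3.50 and -6.76. For serpind1, rdh7.2, mybpc3 and myf5, none of them well above background in embryos, the bound gave no fold. With the ratio computed from the scanner files 6 of the 12 kept a positive sign, 2 of them called (krt12.5 and krt70), whereas all 12 of the largest deficits kept their sign and 11 of them their call. In the same way 95.9% of all probes called lower kept their sign, against 76.8% of those called higher, and among probes well above background on all PVD2 arrays 96.4% and 90.4%.

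The share of probes called higher in PVD2 caps followed this ratio. Where it averaged -5 or less over both tissues, 54.7% of 320 probes were higher and 4.06% lower (median difference 1.19), and the median of the same probes in control was 0.62. For the 60 of them that were well above background on all PVD2 arrays the median was 2.00 in both PVD2 and control. Between 0 and 1, which held 9162 probes, 7.72% were higher and 9.33% lower (median -0.08). Among the 1693 probes at or under -2 in both tissues, so that the sample was at 25% of the reference or less, 34.3% were higher and 4.67% lower. The part of this in the result was not tested. With these probes left out, krt12.5 and krt70 among them, a choice made after the values were seen, 3443 of 19802 were called, 1945 higher and 1498 lower.

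**Figure D5:**
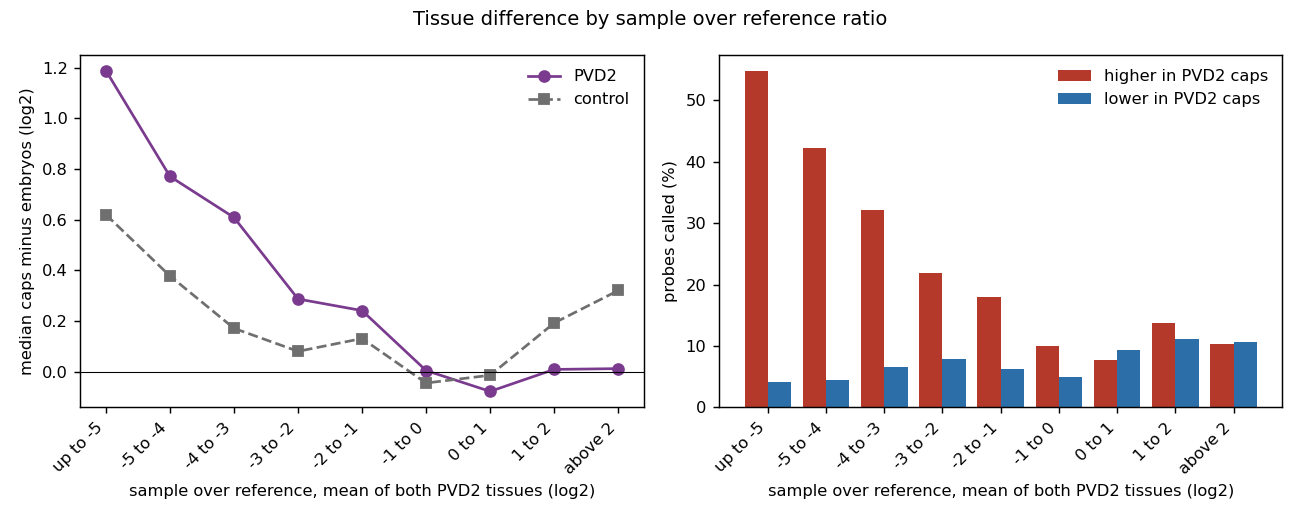
Left, the median caps minus embryos difference (y axis, log2) and right, the percentage of probes called in each direction in PVD2 (y axis), by the mean sample over reference ratio of the probe in the PVD2 arrays (x axis, log2, 9 ranges). The share called higher in PVD2 caps (red, left bar of each pair) is 54.7% in the lowest range and 7.72% between 0 and 1, while the share called lower (blue) stays between 4.06% and 11.1%.

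Among the probes above that limit the 12 largest excesses, chosen after the values were seen and again only among probes without overlap, were socs3, rgs5, scnn1a, btg2, zfyve9, lcp1, mapre2, sdc3, mapk8, wnt11, dio3 and prph2. The growth-restraining gene btg2 had 14.34, 14.75, 14.97 and 15.66 in PVD2 caps against 12.78, 12.82, 12.63 and 12.66 in PVD2 embryos (4.62-fold higher, adjusted p = 0.00175, limma). It was the 1 gene of these 12 that was called with the scanner file ratio (1.70, adjusted p = 0.0279). The epithelial sodium channel subunit scnn1a had 10.60, 11.00, 11.69 and 11.95 in PVD2 caps against 8.24, 8.24, 10.04 and 9.71 in PVD2 embryos (4.76-fold higher, adjusted p = 0.000507). The Smad anchor zfyve9, which presents receptor Smads to the TGF-beta receptor, had 8.49, 7.61, 8.65 and 8.30 in PVD2 caps against 6.16, 6.13, 6.10 and 5.87 in PVD2 embryos (adjusted p = 0.00139). The sign of rgs5, lcp1, mapre2, dio3 and prph2 turned with the scanner file ratio.

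The tissue difference was then set beside that of the control arrays, which share no array with it but share slides and scan days. In control 4098 probes were called (19.1%), 2644 higher (12.3%) and 1454 lower (6.76%) in caps, a split that median centring turned to 1284 higher and 5685 lower. Lower in both were 874 probes, 52.2% of those lower in PVD2 and 60.1% of those lower in control. Higher in both were 1742, 66.4% and 65.9% of the lists, and 1 probe was higher in PVD2 and lower in control. Of the 801 probes called lower in PVD2 but not called in that direction in control, 769 had the same sign in control, and none of the 801 passed the test of the difference between PVD2 and control. Of the 882 called higher in PVD2 but not in control, 783 had the same sign in control and 3 passed that test.

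That test, the difference between PVD2 and control in caps minus embryos, fitted to all 16 arrays, called 6 probes (0.0279%), all with a higher value in PVD2. At an unadjusted p under 0.05 there were 1399. None of the 6 was well above background on every array of any of the 4 tissue and morpholino groups. The replicate block called 12, the random block for slide 217, median centring 32 and quantile normalization 22. Leaving out 1 of the 16 arrays gave 0 to 109, the most without the first stage 9 control embryo sample.

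Of the genes that met the rule for naming, none passed this test, and the 5 with the smallest p were gdf3, mig30, sst.1, tnni3 and bix1.1. For gdf3 the tissue difference was -7.92 in PVD2 and -5.67 in control, a difference between them of -2.25 ± 0.38 (SE, adjusted p = 0.108, limma). Its values in PVD2 caps (7.48, 7.61, 8.19 and 8.25) lay below those in control caps (9.75, 10.48, 10.20 and 11.47), while PVD2 embryos (14.63 to 16.71) overlapped control embryos (15.62 to 16.70). The VegT target bix1.1 ran the same way, at -5.88 in PVD2 and -4.64 in control (-1.24 ± 0.25, adjusted p = 0.141).

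For mig30 the order was reversed, with -2.55 in PVD2 and -4.33 in control (1.78 ± 0.33, adjusted p = 0.113). It had 7.24, 7.01, 10.03 and 10.28 in PVD2 caps, and 6.28, 5.81, 8.36 and 8.33 in control caps, so PVD2 caps were higher within each stage. Among list members outside the 5, fgf8 differed by -1.11 ± 0.26 (adjusted p = 0.174) and admp by -1.97 ± 0.79 (adjusted p = 0.640), neither of which passed.

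By list, no measured member of any of the 10 passed the test between PVD2 and control. Counts of members lower in caps were 11 of 11 in PVD2 and 10 of 11 in control for germ plasm, 8 and 11 of 14 for endoderm (11 in PVD2 too without the second stage 9 PVD2 embryo sample or with all 16 arrays fitted), 8 and 8 of 14 for Nodal, 6 and 9 of 19 for mesoderm and 10 and 8 of 14 for the organizer. Members higher in caps were 5 and 7 of 15 for non-neural ectoderm and 3 and 5 of 18 for neural and early ectoderm. Of all probes 7.79% were lower in PVD2 caps and 6.76% in control caps, and 12.2% and 12.3% were higher. In the Nodal list the tissue difference was more negative in PVD2 than in control for 13 of 14 genes, the largest share of the 10 lists, against 56.6% of all probes. It was so for 6 of 11 germ plasm, 5 of 14 endoderm, 8 of 19 mesoderm and 8 of 14 organizer genes. At an unadjusted p under 0.05 were 3 of 14 Nodal, 3 of 14 organizer and 4 of 19 mesoderm genes, beside 1399 of 21495 probes. Median differences between PVD2 and control were -0.33 for the Nodal list and -0.04 over all probes. Median centring moved the value over all probes to 0.11, so such counts of signs depend on the scaling.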

How the data were processed

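Caps and whole embryos injected with PVD2 or control morpholino were profiled on 16 Agilent 2-colour Xenopus arrays, grouped by their labels. The authors scanned the arrays and read them with Agilent Feature Extraction 9.5.1.1, and the intensity of each spot used here (mean signal and median local background) is as deposited. The log10 ratio of Cy5 over Cy3 deposited per spot was background subtracted and dye normalized by that software, and its sign was turned here. The main values come from the authors' processed table, deposited as log10, whose computation is not given in the sources used here. Its levels followed log Cy3 (r of 0.949 to 0.979 across probes, which are not independent), and its differences between arrays followed the sample over reference ratio (r of 0.970 to 1.000) more than Cy3 (0.345 to 0.950). Differences were therefore read as sample over reference, and the centring of the table is unknown. These log10 values were converted to log2 and fitted with limma 3.58.1 in R 4.3.3 (lmFit, eBayes, FDR 0.05). Caps minus embryos over both stages, in the 8 PVD2 or the 8 control arrays, had stage as a covariate. The tests at each stage and of the change between stages used a mean for each tissue and stage of the 8 PVD2 arrays. The test between PVD2 and control used a mean for each of 8 groups of all 16 arrays. Scanner files of 15 arrays served the background flags, the bounds and an alternative ratio (normexp, offset 50, loess within arrays).

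Genes were named through RefSeq's table of assembly Xenopus_laevis_v10.1 and the arrays' own annotation, which gave 3634 of 21495 probes 1 gene name, 73 several and 17788 none. Named were the 12 genes with the largest difference in each direction among called probes without overlap, with 1 gene name and well above background on every scanner array of the brighter tissue, then all members of 10 gene lists, and the 5 genes with the smallest p for the tests between PVD2 and control and between stages where fewer than 3 passed. The members and lists were chosen with earlier results of these data known. Of several probes of a gene the brightest was used for lists. The values of 1 list member are not reported here.

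Same-numbered PVD2 arrays deviated together from their group means in all 6 pairs of groups (r of 0.529 to 0.647), so the labelled replicate numbers were taken to pair the arrays, and the fit with the number as a block is given where it moves a count by 1.5 times or more. The main fit has no term for this number, and adjusted p-values of single genes come from the main fit. With the block 6622 probes passed for caps minus embryos in PVD2, against 4299 in the main fit. Replicates are labelled biological. P-values of the main fit rest on the spread of samples around its tissue and stage terms. That spread includes any change of the tissue difference between stages and any effect of the replicate number. With all 16 arrays and a mean for each group gata4, gata5, cer1 and tbxt passed for caps minus embryos in PVD2. The number of arrays limits the precision. Alternatives were the scanner file ratio, the Feature Extraction ratio, median and quantile scaling, a filter on dim probes, fixed and random blocks, no stage term, other moderation, all 16 arrays, each array left out in turn, and, chosen after seeing the data, a limit on the sample over reference ratio and all alternatives of the control comparison. The procedure was tested on simulated data with 200 of 21495 probes changed: for caps minus embryos in PVD2 it recovered 42% of 2-fold and 75% of 4-fold changes with 10.7% of calls false, and for the test between PVD2 and control 31% and 74% with 4.55% false. The simulated noise was independent between arrays, without stage, slide or replicate effects, so these shares need not hold for the real arrays.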

Additional observations from a re-analysis of the deposited data

Results flagged for a closer look

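The 6 probes whose caps minus embryos difference differed between PVD2 and control (adjusted p under 0.05, limma) were singled out because the effect differed between the morpholinos, all being higher in PVD2. For kctd12 the difference between PVD2 and control was 1.76, with a tissue difference of -1.10 in PVD2 and -2.86 in control, and no array had this probe well above background. For ebf2, a transcription factor gene, it was 1.66, with a tissue difference of 1.71 in PVD2 and 0.05 in control, and the probe was above background on 2 of 3 PVD2 cap arrays and no embryo array. MGC84175, a clone name in the array's annotation, gave 1.87, and the 3 probes without a gene name gave 2.28, 1.94 and 1.35. None of the 6 was well above background on every array of any group, and none was called when the ratio was computed from the scanner files.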

How the results depend on the processing

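Against 4299 for caps minus embryos in PVD2, the scanner file ratio (7 arrays) called 544, the processed values of the same 7 arrays 3087 and the Feature Extraction ratio 3412. The replicate block called 6622, the random block for slide 2301, and leaving out 1 array 2838 to 3545. Against 1541 at stage 9, the scanner file ratio called 8, the processed values of the same 7 arrays 877, the replicate block 3399, all 16 arrays 2358, no moderation 932 and the limit on the sample over reference ratio (chosen after seeing the data) 889, with 351 to 1179 on leaving out 1 array. Against 1202 at stage 10 the same settings called 10, 240, 2839, 2016, 754 and 620, the Feature Extraction ratio 272, and leaving out 1 array 240 to 946. For the change between stages, where 0 passed, the random block called 67 and all 16 arrays 34, and leaving out 1 array gave 0 to 3 (3 without the first stage 9 PVD2 embryo sample). For the test between PVD2 and control, where 6 passed, 0 were called with the scanner file ratio, the 15 arrays with scanner files, trend and robust moderation, no moderation or the ratio limit, 1 with the dim probe filter or an additive stage term, 12 with the replicate block, 22 with quantile normalization, 32 with median centring and 217 with the random block. Leaving out 1 array gave 0 to 109, with 109 and 25 without the first and second stage 9 control embryo samples and 11 without the first at stage 10. For control, where 4098 passed, the scanner file ratio called 2016, median centring 6969, the random block 2446, and leaving out 1 array 2435 to 3880. The cause of these changes was not tested.

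Of 147 genes followed in the PVD2 comparison 74 were called, 30 of them under every alternative. Of the 74, the sign turned for 12, each with the scanner file ratio alone and not with the Feature Extraction ratio: arr3 (-0.52), cdx2 (-0.59), inhbb (-0.13), irx2 (-0.15), krt12.2 (-0.45), msx2 (-0.020), mybpc3 (-0.58), myf5 (-0.14), pou3f4 (-0.81), rdh7.2 (-0.65), rgs5 (-0.48) and serpind1 (-0.59). All 12 had been called higher in caps, and none was called with that ratio. Probes not well above background in 1 tissue give only a bound there, and the 7 scanner arrays leave 3 PVD2 caps for it.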

Other observations

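Lists of muscle, collagen and plasma protein genes were drawn up after their values were seen and are described without a test. Of 20 measured muscle genes 12 were called higher and 1 lower in PVD2 caps (median 1.56), of 4 collagens all 4 were called higher (median 2.19), and of 10 plasma protein genes 8 (median 2.18). Of all probes 12.2% were higher and 7.79% lower, and of all probes with a mean sample over reference ratio of -5 or less 54.7% were higher. In control the medians were 1.59, 2.40 and 2.29. The skeletal actin acta1 had 10.17, 10.19, 10.15 and 10.09 in PVD2 caps and 6.80, 7.18, 7.33 and 7.54 in PVD2 embryos, without overlap (2.94 ± 0.15). The calcium pump gene atp2a1 differed by 2.85 ± 0.16 and col1a1 by 2.76 ± 0.12. Cy3 was 0.671% to 0.823% of Cy5 for acta1 in PVD2 caps and 0.0508% to 0.135% in PVD2 embryos, and the median sample over reference ratio of the muscle list was -3.50 in caps and -5.79 in embryos (log2). The part of these low ratios in the result was not tested. With the scanner file ratio acta1 differed by 0.53 (adjusted p = 0.747, limma).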
